A study of Rattus norvegicus with 20 samples.

Results

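Array signals of rats with experimental pulmonary embolism (PE) departed from those of vehicle rats differently at the ends of the right ventricle. The subject here is that regional difference. An effect of PE means the difference between PE and vehicle arrays of a region. All 20 arrays of the series entered: 5 from the apex of vehicle rats, 5 from the apex of PE rats, 5 from the outflow tract of vehicle rats and 5 from the outflow tract of PE rats. For each of 31042 probe sets, and through 1 probe set per gene for 14217 genes, the effect of PE in the apex was subtracted from the effect of PE in the outflow tract. A positive difference therefore means that PE raised the transcript more, or lowered it less, in the outflow tract than in the apex.

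The rats were male Sprague Dawley animals of about 350 g. PE rats (labelled PE2.0) had received polystyrene microspheres of 25 micron, at 2000000 per 100 g body weight in 0.01% Tween-20, by injection into the right jugular vein, and vehicle rats 0.01% Tween-20 without microspheres, at volumes that the labels and the design text give differently for the vehicle. Hearts were taken 6 weeks later and rinsed through a Langendorff perfusion before the right ventricle was cut into apex and outflow tract (base). The labels do not say which apex and outflow arrays came from 1 rat; arrays of the same treatment and number deviated together, and a fit with that number as the rat is an alternative below. The labels' euthanasia text names vehicle treatment for all 20 samples, while titles, sources and injections separate the groups. Labels call each sample a biological replicate. The vessels were obstructed with polystyrene spheres and not with injected clots, and no sham without injection was analysed here.

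The right ventricle pumps blood into the lung arteries, and obstruction of those arteries raises the pressure against which it contracts. Its apex is trabeculated muscle, whereas the outflow tract is a smooth-walled funnel below the pulmonary valve. Ventricles under lasting load are known to re-express natriuretic peptides, to deposit collagen-rich matrix and to use less fatty acid oxidation.

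The PE outflow arrays differed in RNA quality. Degraded RNA or short copies raise the GAPDH 3'/5' control ratio. It spanned 1.38 to 1.83 in the vehicle groups (10 arrays) and 1.47 to 1.67 in the PE apex. On PE outflow replicates 1 to 5 it was 1.71, 6.12, 1.70, 2.20 and 2.34, so replicates 2, 4 and 5 stood apart. Leaving out these 3 arrays kept only replicates 1 and 3 in that group. Without these 3 arrays all 5567 called differences described below kept their direction and 3646 probe sets were called, 3198 of them the same ones. Among the called genes the median size of the difference was then 0.80 instead of 0.97 on the log2 scale. Genes of ventricular or general heart muscle were bright in every group: the group means of Myl2, Tnni3, Myl3 and Tnnt2 (regulatory and essential light chains and troponins) lay between 27033 and 56649. The atrial light chains Myl7 and Myl4 had group means of 691 to 2891 and 164 to 2454, and their part in the results was not tested.

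The effect of PE differed between the regions for 5567 of 31042 probe sets (17.9%; limma, Benjamini-Hochberg adjusted p under 0.05), 3056 with a positive (9.84%) and 2511 with a negative difference (8.09%). At an unadjusted p under 0.05 there were 9345. When each array was centred on its median instead, 5287 were called, 38.7% of them positive against 54.9% in the deposited scale. That centring moved the median difference of all probe sets from 0.06 to -0.05, so the balance of positive and negative calls depends on the scale. Between PE and vehicle apex 4 probe sets passed the same threshold (0.0129%, with 2320 at an unadjusted p under 0.05). Between PE and vehicle outflow tract 10720 did (34.5%, with 6083 higher, 19.6%). The fit shares an estimate of the spread over all 4 groups, so apex p-values also carry the spread of the PE outflow arrays. With array weights 31 probe sets were called in the apex. In vehicle rats 0 probe sets were called between outflow tract and apex (1152 at an unadjusted p under 0.05, 3.71%). This does not show that the regions were alike without PE. In PE rats 8924 were called between the regions (28.7%), or 5371 of 14217 genes (37.8%).

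The 3451 genes with a called difference (24.3% of 14217) were sorted by their effect within each region. The large majority, 2988 genes, had a called change in the outflow tract and an unadjusted p of 0.05 or more in the apex (outflow-only): 1670 rose in the outflow tract and 1318 fell. Another 354 moved the same way in the apex at an unadjusted p under 0.05, but less (graded), 266 upward and 88 downward. Opposite directions at these thresholds were found for 44 genes (0.309% of 14217), where 8.29% of all genes had an unadjusted apex p under 0.05. In 39 genes the outflow change was not called and the apex effect was the larger (apex-led), and 26 weak ones had a called difference without a called outflow change and with the smaller effect in the apex. Beside these stood 354 genes with the same direction in both regions and no called difference (shared), 245 of them up. A further 2556 changed in the outflow tract with neither a called difference nor an apex effect, and these could not be sorted. An apex p that missed 0.05 does not show that the apex was unaltered. The class borders moved with the threshold for the apex: graded probe sets numbered 482, and 184 at an apex p under 0.01, while 845 were graded without PE outflow replicate 2. Opposite probe sets numbered 102, and 21 at an apex p under 0.01.

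**Figure D1:**
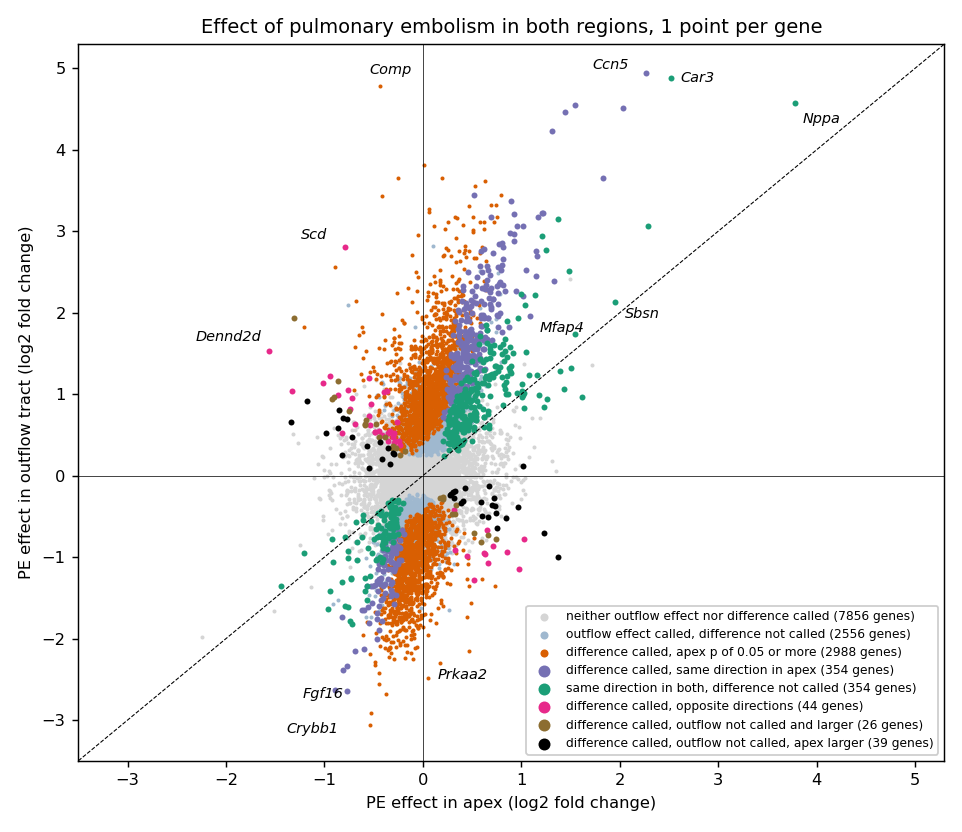
Each point is 1 of 14217 genes; the horizontal axis gives its PE effect in the apex and the vertical axis in the outflow tract, both as log2 fold changes over vehicle of the same region, with colours for the classes and a dashed line where both effects are equal. Most coloured points lie along the vertical axis, Nppa and Sbsn lie near the dashed line, and Comp reaches 4.78 in the outflow tract at -0.44 in the apex.

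The apex was not silent where the outflow tract responded strongly. Of the 177 genes that rose by a log2 value between 2 and 3 in the outflow tract, 164 (92.7%) were also higher in the PE apex, with a median of 2.28 in the outflow tract and 0.44 in the apex. The 45 genes above 3 had medians of 3.24 and 0.69. Of the 638 genes that rose by less than 0.5, 60.2% were higher in the apex, with a median of 0.04. Falls showed the same order: for the 46 genes below -2 the median apex effect was -0.34. Across all 14217 genes the effects in both regions correlated at a Pearson r of 0.41, and at 0.60 across the 8129 genes with a mean log2 signal above 8. This is a description across genes, which are not independent replicates, and the protocol cuts both regions from a ventricle.

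**Figure D2:**
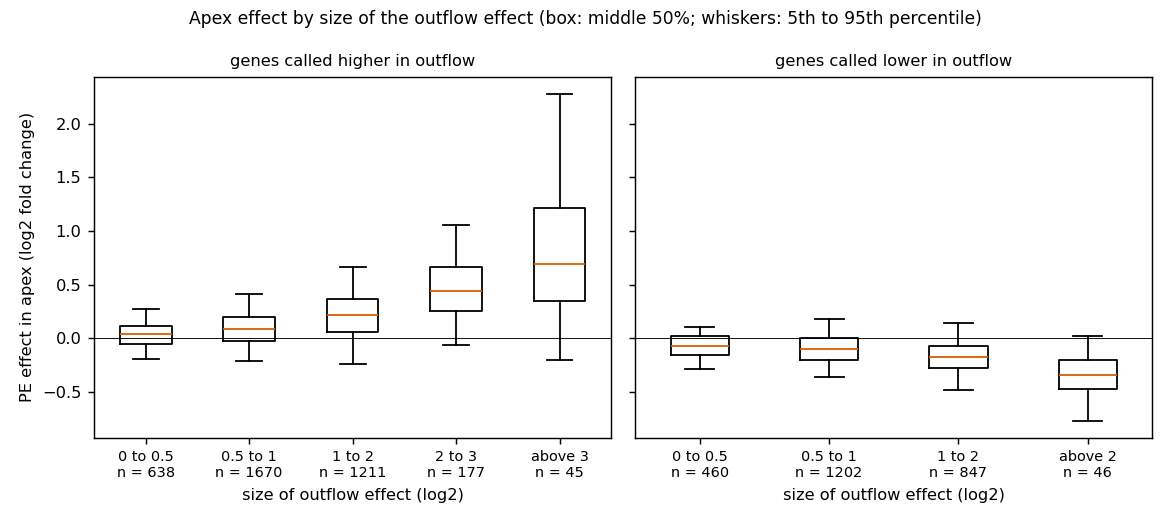
Genes called in the outflow tract are binned by the size of that change (horizontal axis, log2), and boxes show the middle 50% of their apex effects (vertical axis, log2 fold change), with the median as a coloured line and whiskers at the 5th and 95th percentiles. The median apex effect moves from 0.04 in the lowest bin of rises to 0.69 in the highest, and from -0.07 to -0.34 for falls.

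A single gene illustrates each main pattern. Comp encodes cartilage oligomeric matrix protein, which binds collagen fibrils in tendon, cartilage and scar. Its signals on replicates 1 to 5 were 42.6, 61.2, 31.5, 101 and 39.7 in the vehicle apex, 26.8, 29.5, 31.8, 41.6 and 41.6 in the PE apex and 25.5, 41.1, 19.8, 51 and 41.3 in the vehicle outflow tract. On the PE outflow arrays they were 1388, 347, 2638, 1740.2 and 2130.2. Every PE outflow array stood above all 15 others, and the array of replicate 2 was the lowest of its group. The difference of the PE effect was 5.22 ± 0.55 (log2, SE; adjusted p = 7.08e-05), the largest positive one of a called gene.

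Ppara encodes the fatty-acid-sensing nuclear receptor PPAR-alpha, which drives genes of fat oxidation. Its signals were 39.8, 128, 47.8, 55.1 and 76.5 in the vehicle apex, 115, 102, 147, 64.7 and 69.2 in the PE apex, 119, 152, 70.5, 115 and 109 in the vehicle outflow tract and 12.2, 11.9, 50.6, 2.8 and 2.7 in the PE outflow tract. The PE outflow arrays lay below all vehicle outflow and PE apex arrays and were dim, and their highest overlapped the lowest vehicle apex array. The difference was -2.62 ± 0.45 (adjusted p = 0.000947).

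Nppa, the gene of atrial natriuretic peptide, stands for a response in both regions. Its signals were 876, 563, 1588, 435 and 941 in the vehicle apex and 9457, 2888, 15897, 16176 and 24985 in the PE apex. In the outflow tract they were 364, 1383, 790.2, 429.9 and 528 in vehicle and 14289, 16017, 22756, 13579 and 11397 in PE rats. The groups did not overlap in either region. Nppa rose by 3.78 ± 0.48 in the apex and by 4.58 ± 0.48 in the outflow tract (log2, SE; adjusted p = 0.00591 and 7.52e-07). Its difference of 0.80 ± 0.67 was not called (adjusted p = 0.48; 95% interval -0.62 to 2.21).

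The 250 bases upstream of the start sites of these 3 genes are shown because their transcripts moved in the outflow tract only, downward there, and in both regions. They come from RefSeq on build GRCr8, were read in the direction of transcription and were chosen after the values were seen. They were searched, on both strands, for TGACTCA (AP-1), GGAATGT (TEAD), AAGGTCA (estrogen-related receptors) and GCATGCG (NRF1), factors known for activity in fibrosis, growth or mitochondrial gene control. Capitals mark a match.
Comp, chr16:19089549-19089798, minus strand: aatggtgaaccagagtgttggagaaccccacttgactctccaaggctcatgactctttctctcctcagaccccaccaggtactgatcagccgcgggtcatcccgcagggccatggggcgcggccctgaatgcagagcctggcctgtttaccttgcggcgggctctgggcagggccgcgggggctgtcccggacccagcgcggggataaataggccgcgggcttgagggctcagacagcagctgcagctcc
Ppara, chr7:118712357-118712606, plus strand: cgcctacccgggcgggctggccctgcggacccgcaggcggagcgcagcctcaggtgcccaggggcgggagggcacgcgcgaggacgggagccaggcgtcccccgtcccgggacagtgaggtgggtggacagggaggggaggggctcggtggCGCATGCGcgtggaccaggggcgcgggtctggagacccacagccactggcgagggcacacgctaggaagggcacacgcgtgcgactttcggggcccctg
Nppa, chr5:163711934-163712183, plus strand: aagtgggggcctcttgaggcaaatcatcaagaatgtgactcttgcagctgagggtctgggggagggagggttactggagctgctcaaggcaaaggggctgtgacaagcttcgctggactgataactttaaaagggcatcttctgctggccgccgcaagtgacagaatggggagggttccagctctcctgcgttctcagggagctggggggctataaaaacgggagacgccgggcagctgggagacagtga
Only the stretch of Ppara held a match, overlapping NRF1 letters on both strands that begin 99 and 98 bases before the start site. Among all 10945 array genes with a RefSeq promoter (250 bases before to 50 after the start), 5.47% held GCATGCG, against 4.57% of the 1488 with a positive and 6.44% of the 1133 with a negative called difference. TGACTCA was in 3.81%, 4.37% and 3.71% of these, in the same order. The letters describe sequences and show no binding.

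Extracellular matrix genes had mostly positive differences. Of 20 measured collagens, 16 had a called positive difference and 0 a negative one (median 1.16, against 0.10 over all 14217 genes, of which 14.1% were called positive). Their median effect was 1.65 in the outflow tract and 0.36 in the apex, and 10 of them had an unadjusted p under 0.05 upward in the apex, where 5.19% of all genes did so (3.1% downward). Col16a1, a fibril-associated collagen, had a difference of 1.78 ± 0.21, and Col18a1, the basement membrane collagen from which endostatin is cut, one of 1.8 ± 0.25 (adjusted p = 0.000101 and 0.000274). Col6a1, of the microfibrillar type VI, differed by 1.27 ± 0.19. Col8a2, a short-chain collagen, was graded: 1.31 in the apex and 4.23 in the outflow tract. The major fibrillar genes Col1a1 and Col3a1 were graded as well, at 0.62 and 0.39 in the apex against 1.66 and 0.93 in the outflow tract. A dimmer Col1a1 set was outflow-only, with 0.22 in the apex and 2.11 in the outflow tract. Col2a1, the cartilage collagen, had a difference of 3.8 ± 1.03 on its brightest probe set, while neither of its other probe sets was called.

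Among 34 other matrix and crosslinking genes 26 had a called positive difference and 0 a negative one, with a median of 1.41. Loxl1, an elastin and collagen crosslinking enzyme, went from 833 ± 191 to 5612 ± 1087 in the outflow tract (signal, mean ± SD, n = 5) and from 785 ± 155 to 1291 ± 227 in the apex. Its difference was 2.03 ± 0.26 (adjusted p = 0.000153). Bgn, a small collagen-binding proteoglycan, and Efemp2, an elastic fibre protein, differed by 1.79 ± 0.28 and 1.84 ± 0.29. Postn, the matricellular protein periostin, had a difference of 2.21 ± 0.65 (adjusted p = 0.0223, and 0.067 without PE outflow replicates 2, 4 and 5). Of 27 matrix proteases and inhibitors 12 were called positive and 0 negative: Timp1, the inhibitor of metalloproteinases, differed by 1.9 ± 0.36, Mmp23 by 1.89 ± 0.24 and the gelatinase Mmp2 by 1.22 ± 0.19. The collagenase Mmp13 was near background in 3 groups, with signals of 1002, 39.8, 104, 244 and 333 in the PE outflow tract. That is a spread of more than an order of magnitude among the 5 rats, and the difference was 3.84 ± 0.76 (adjusted p = 0.00214).

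Ligands and antagonists of the TGF-beta superfamily had positive differences: of 34 genes of TGF-beta, BMP and Wnt signalling, 22 had a called positive difference and 0 a negative one (median 1.12). The ligands Tgfb3 and Tgfb2 had differences of 1.62 ± 0.20 and 1.28 ± 0.22, both graded, and Inhba, a subunit of activin A, one of 2.21 ± 0.32. Dimmer probe sets of Tgfb2 and Inhba differed by 0.16 and 0.40 and were not called (adjusted p = 0.73 and 0.595). Ltbp3, which anchors latent TGF-beta in matrix, differed by 1.84 ± 0.26. Fst, the activin antagonist follistatin, had signals of 107, 152, 93.1, 90.7 and 99.7 in the vehicle apex and 152, 175, 147, 113 and 156 in the PE apex. In the outflow tract these were 118, 116, 111, 120.4 and 133 in vehicle and 788, 977, 864, 1576 and 1781 in PE rats. The PE outflow arrays stood more than 4-fold above every other array for Fst, whose difference was 2.67 ± 0.28 (adjusted p = 7.08e-05). A dimmer Fst set was graded, with 1 in the apex and 3.79 in the outflow tract. Grem1, the BMP antagonist gremlin, was dim outside the PE outflow tract and read 108, 151, 770.1, 969.7 and 504 there (difference 3.9 ± 0.68). Sfrp2, a secreted modulator of Wnt signals, was graded, from 264 ± 51.9 to 763 ± 261 in the apex and from 320 ± 169 to 8228 ± 4402 in the outflow tract.

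Growth factor genes divided. Igf1, insulin-like growth factor 1, gave 3849, 4092, 4868, 3263 and 4357 in the vehicle apex, 5494, 3986, 3671, 4595 and 4554 in the PE apex, 3765, 3893, 4227, 4352 and 2885 in the vehicle outflow tract and 12378, 11818, 13751, 14448 and 13274 in the PE outflow tract. The apex groups overlapped, and the PE outflow arrays lay far above them with little spread. Its difference was 1.66 ± 0.20 (adjusted p = 9.39e-05), and its binding proteins Igfbp3 and Igfbp6 differed by 2.5 ± 0.37 and 1.48 ± 0.23. In the other direction Fgf16, a fibroblast growth factor made by heart muscle, had signals of 793, 906, 833, 906 and 1602 in the vehicle and 199, 163, 175, 89.2 and 98.4 in the PE outflow tract, against 774, 874, 581, 951 and 889.9 and 676, 619.9, 507, 627 and 675 in the apex. It fell in the outflow tract by 2.68 ± 0.21 and had a difference of -2.31 ± 0.30 (adjusted p = 0.000174). Over the 22 genes of both families 8 had a called positive and 4 a called negative difference.

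**Figure D3:**
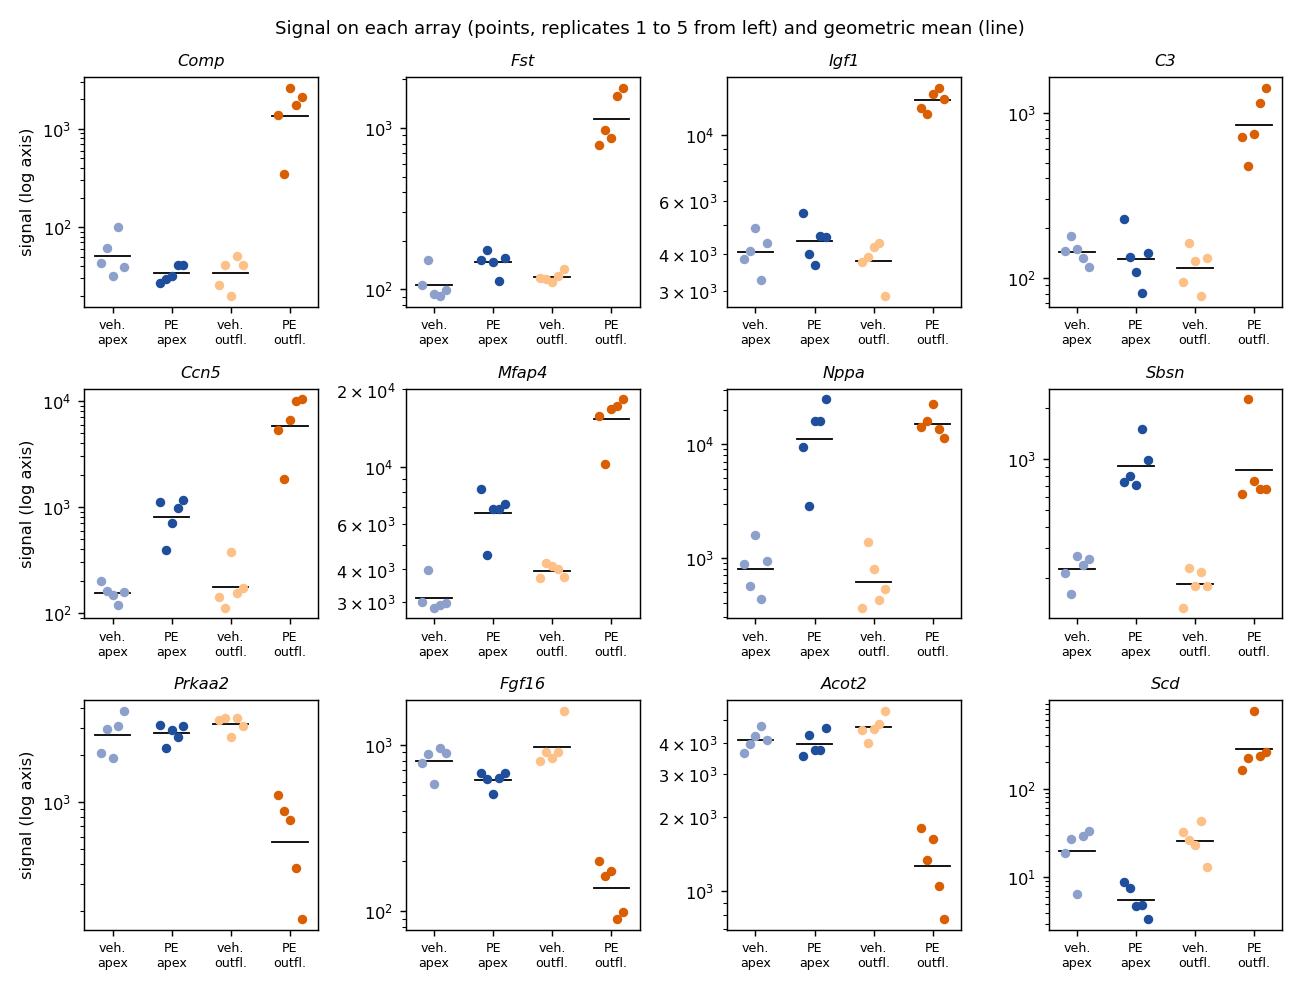
Signals of 12 genes on a log axis in the 4 groups, 5 points per group for replicates 1 to 5 from left to right and a line at the geometric mean. Comp, Fst, Igf1 and C3 separate PE outflow alone, Ccn5 and Mfap4 step up in the apex and further in the outflow tract, Nppa and Sbsn rise to like levels in both, and Prkaa2, Fgf16 and Acot2 fall in the PE outflow tract.

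The 8 graded genes with the smallest apex p are described here. Mfap4, a microfibril-associated protein, had apex signals of 2987, 3966, 2841, 2923 and 2962 in vehicle and 8236, 4572, 6859.6, 6843 and 7200.5 in PE rats, and outflow signals of 3709, 4241, 4111, 4002 and 3748 and 15824, 10282, 16824, 17306 and 18343. The groups were apart in both regions. Mfap4 rose by 1.09 ± 0.17 in the apex and 1.96 ± 0.17 in the outflow tract, a difference of 0.87 ± 0.23 (adjusted p = 0.014). It was the 1 gene of 3 called in both regions (with Nppa and Sbsn, 0.0211% of genes called in the apex) that also had a called difference. Ccn5, a matricellular protein of the CCN family, read 199.7, 160.3, 149, 119.7 and 159 in the vehicle apex, 1112, 389, 711, 970.3 and 1173 in the PE apex, 140.2, 112, 379.5, 155 and 173 in the vehicle outflow tract and 5277, 1849, 6691, 10049 and 10429 in the PE outflow tract. All 5 PE arrays of either region lay above the vehicle arrays, and the outflow effect of 4.94 exceeded the apex effect of 2.27 (difference 2.67 ± 0.57, adjusted p = 0.0035). Thbs4, a thrombospondin induced by load in heart and tendon, had effects of 1.83 and 3.65 in apex and outflow tract, and Adamtsl2, a secreted glycoprotein of the microfibrils, of 1.15 and 2.76. Pi16, Islr, Fbln2 and Nbl1 had apex effects of 0.60 to 1.15 and outflow effects of 1.3 to 2.45. A dimmer Pi16 set had 1.58 in the apex and 1.61 in the outflow tract, with a difference of 0.03 (adjusted p = 0.974), and so was shared. Apex values of Ccn5, Thbs4, Adamtsl2, Pi16, Islr, Fbln2 and Nbl1 did not pass the adjusted threshold. The difference of Mfap4 lay between 0.74 and 1.17 over the alternatives, with adjusted p from 0.00118 to 0.0819.

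On the losing side, genes of energy metabolism fell in the outflow tract with small apex effects. Of 32 genes of fatty acid uptake and oxidation, 28 had a called negative difference and 0 a positive one, with a median of -1.3 where 10.2% of all genes were called negative. The list's mean log2 signal relative to vehicle was -0.30, -0.24, -0.25, -0.27 and -0.33 on PE apex replicates 1 to 5 and -1.13, -1.32, -1.22, -1.83 and -1.94 on PE outflow replicates. All PE outflow arrays lay below all PE apex arrays, and replicates 4 and 5 were the lowest. GAPDH ratios of PE outflow replicates 1 to 5 were 1.71, 6.12, 1.7, 2.2 and 2.34, against at most 1.67 in the PE apex. The part of RNA quality in these values was not tested. Without replicates 2, 4 and 5 the list had 29 called members and a median of -0.96. Acot2, a mitochondrial acyl-CoA thioesterase, had signals of 4525, 4028, 4576, 4800.3 and 5434 in vehicle and 1807, 1343, 1633, 1049.8 and 769 in PE outflow tracts, and of 3647, 3968, 4303, 4704 and 4131 and 3569.8, 4342, 3769.5, 3755 and 4639.5 in the apex. The apex groups overlapped and the outflow groups did not. The difference was -1.82 ± 0.25 (adjusted p = 0.000266). Cpt2, which completes carnitine-dependent import of fatty acids, and Eci2 and Ech1, isomerases for unsaturated fats, differed by -1.31 ± 0.19, -1.29 ± 0.19 and -1.29 ± 0.19. Outside the list, Aqp7, a glycerol channel, went from 6677 ± 940.5 to 1211 ± 565 in the outflow tract and from 6482 ± 625 to 4731 ± 319.7 in the apex (difference -2.11 ± 0.32).

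The citric acid cycle showed the same pattern, with 20 of 22 called negative and a median of -1.17. Pdk1, a kinase that brakes pyruvate dehydrogenase, differed by -1.2 ± 0.17, and Suclg1, of succinyl-CoA ligase, by -1.18 ± 0.17. Of 41 respiratory chain and ATP synthase genes 26 were called negative (median -0.90), among them Sdha of complex II at -1.11 ± 0.18, Uqcrc2 of complex III at -0.97 ± 0.16 and Ndufb8 of complex I at -1.49 ± 0.25. Of 37 mitochondrial ribosomal proteins 25 were called negative, led by Mrpl3 at -1.36 ± 0.19. Of 25 cytosolic ribosomal proteins 3 were called positive (12%, against 14.1% of all genes) and 0 negative. The positive calls numbered 16 with quantile normalization, 2 with median centring and 1 without PE outflow replicates 2, 4 and 5. The 3 called on the deposited scale were Rpl3, Rps23 and Rpl23, with differences of 0.77, 0.77 and 0.56. The call of Rpl23 (adjusted p = 0.0423) was lost in 28 of its 42 alternatives. Rps23 had an adjusted p of 0.084 without PE outflow replicates 2, 4 and 5. Of 25 genes of glycolysis, glucose uptake and glycogen 12 were called negative: the insulin-responsive transporter Slc2a4, the glycogen synthase Gys1 and the muscle phosphofructokinase Pfkm differed by -1.7 ± 0.30, -1.76 ± 0.31 and -1.65 ± 0.32. Pfkp, Pygl and Aldoc, isoforms best known from platelets, liver and brain, were the 3 called positive, at 0.49, 0.78 and 1.1. Of these calls 1 was left with quantile normalization and 0 with median centring or without PE outflow replicates 2, 4 and 5. Of 13 genes of creatine kinase and energy transfer 9 were called negative, including the mitochondrial carrier Slc25a11 at -1.27 ± 0.22.

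Of 24 metabolic regulators 16 had a called negative difference. Prkaa2, the catalytic AMPK subunit prominent in muscle, read 1120, 883, 774, 382 and 178 in the PE outflow tract, against 3350.2, 3476, 2629, 3490.4 and 3094 in the vehicle outflow tract. In the apex it read 2059.6, 2942, 1928, 3083 and 3861 in vehicle and 3144, 2222, 2915, 2638 and 3100.4 in PE rats, which overlap. The difference was -2.53 ± 0.48 (adjusted p = 0.00169). Esrra, the estrogen-related receptor of mitochondrial genes, differed by -1.62 ± 0.28, and the angiogenic factors Vegfb and Vegfa by -1.41 ± 0.30 and -1.24 ± 0.33. The single regulator called positive was Hif1a, the hypoxia-inducible subunit, at 0.79 (adjusted p = 0.0049), a call lost without PE outflow replicates 2, 4 and 5. Hif1a and the positive isoforms above were named after their values were seen, because the counts they make up are small.

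Electrical and contractile genes followed. Of 16 calcium cycling genes 12 were called negative (median -1.13), led by the L-type channel subunits Cacna1c and Cacnb2 at -1.25 ± 0.21 and -1.48 ± 0.32. The exception was Sri, the ryanodine receptor partner sorcin, at 0.77 ± 0.17 (adjusted p = 0.0046; 0.0518 without PE outflow replicates 2, 4 and 5). Asph differed by -1.45 ± 0.33 on its brightest probe set and by 0.92 and 0.66 on others, both of them called, so its direction depends on the probe set. Of 20 ion channel and connexin genes 9 were called negative and 0 positive: Scn4b, a sodium channel subunit, at -1.82 ± 0.35, and the potassium channel genes Kcnh2, Kcnd2, Kcnip2 and Kcnj5 at -2.06 ± 0.51, -1.81 ± 0.42, -1.48 ± 0.33 and -1.36 ± 0.31. Of 19 genes of adrenergic and cAMP signalling 11 were called negative, among them the scaffold Akap6 at -2.47 ± 0.45 and adenylyl cyclase Adcy5 at -1.35 ± 0.26. Another Akap6 probe set, at mean signals of 191 and 172 in the outflow groups, differed by -0.34 (adjusted p = 0.317). Dimmer sets of Kcnip2, Kcnj5, Adcy5 and Ldb3 were not called either, at 0.16, -1.15, -0.04 and -0.63. Contraction genes had a median of -0.69 with 5 of 16 called negative, led by Ldb3, a Z-disc protein, at -1.84 ± 0.31. With median centring 9 were called, and 13 without PE outflow replicates 2, 4 and 5. Nkx2-5, the core heart transcription factor, went from 2816 ± 415 to 821 ± 349.6 in the outflow tract while its apex means were 2497 ± 48 and 2496 ± 173 (difference -1.86 ± 0.31). It was 1 of 9 of 27 heart development genes called negative, with 1 called positive, Tbx18 (1.08), named after its value was seen. The positive call was lost with quantile normalization, with median centring and without PE outflow replicates 2, 4 and 5, and 5 negative calls were left in the last of these.

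Values of the most abundant muscle transcripts depended on the probe set and on the arrays used. The brightest Myh6 set (alpha myosin heavy chain), at 47722 ± 4657 in the vehicle and 32700 ± 16408 in the PE outflow tract, gave a difference of -0.45 ± 0.28 that was not called (adjusted p = 0.3). A second Myh6 set went from a mean of 21543 to 2736 in the outflow tract and differed by -3.18 (adjusted p = 0.00148). For Myh7, the beta chain, the brightest set differed by -0.38 ± 0.35 (adjusted p = 0.522) and another by -2.21 (adjusted p = 0.00899). Atp2a2, the calcium pump of the sarcoplasmic reticulum, differed by -0.57 ± 0.27 without a call, and by -0.71 and -1.0 on sets that were called. Ankrd1 differed by -0.36 ± 0.24 without and by -0.83 with a call. On the brightest sets, leaving out PE outflow replicate 2 moved Myh6 to -0.71, Myh7 to -0.71 and Ankrd1 to -0.57. Without PE outflow replicates 2, 4 and 5, Myh6 (-0.54, adjusted p = 0.0227) and Atp2a2 (-0.59, adjusted p = 0.0136) were called. The brightest sets of these 4 genes had group means of 28471 or more, and whether signal strength plays a part was not tested.

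**Figure D4:**
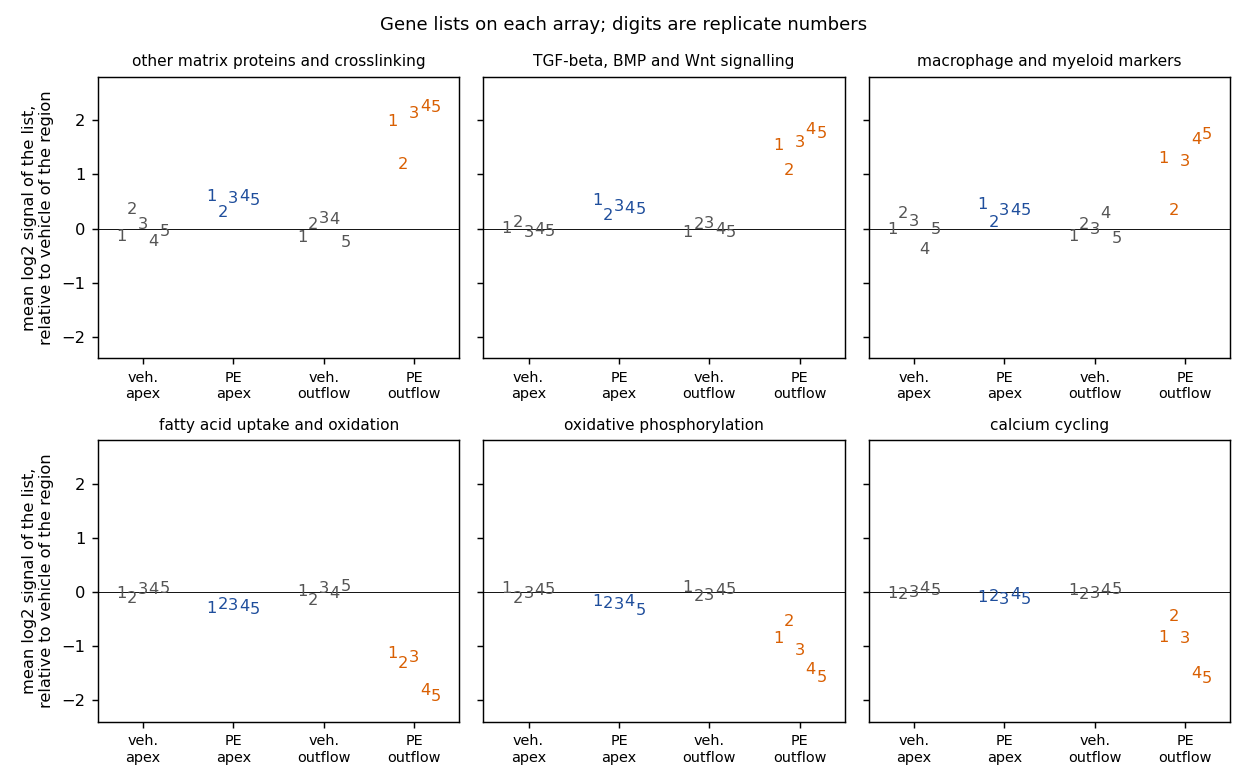
Mean log2 signal of 6 gene lists on each array relative to the vehicle mean of the same region, with digits for replicate numbers and 4 columns for the groups. Matrix, TGF-beta and macrophage lists lie above 0 and the metabolic and calcium lists below 0 on the PE outflow arrays, where replicates 4 and 5 are farthest from 0 and replicate 2 is nearest in 5 of the 6 lists, and PE apex arrays lie nearer 0 except that macrophage values of PE apex overlap PE outflow replicate 2.

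Like Nppa, the other shared genes had no called difference. Sbsn, the secreted protein suprabasin, read 212, 161, 269, 238 and 259 and 740.5, 796, 703, 1517 and 990 in vehicle and PE apex, and 133, 229, 179.9, 217 and 178 and 626, 2270.5, 741, 668 and 669.6 in vehicle and PE outflow tract. The PE arrays lay above the vehicle arrays in both regions. It rose by 1.95 ± 0.29 and 2.13 ± 0.29, and the difference was 0.18 ± 0.42 (adjusted p = 0.825; 95% interval -0.68 to 1.05), which still allows a gap of more than a doubling. Nppb, the gene of brain natriuretic peptide, had apex means of 4263 ± 747 and 9943 ± 2825 and outflow means of 3497 ± 1598 and 6624 ± 1453. Its interval was -0.96 to 0.58. F13a1, the coagulation factor XIII subunit also made by resident macrophages, was higher by 0.90 in the apex and 1.26 in the outflow tract (interval of the difference -0.16 to 0.88). Scx, a tendon and valve transcription factor, and Apln, the vessel-active peptide apelin, were lower by similar steps: -0.73 and -0.73 in the apex, -1.26 and -1.27 in the outflow tract. A dimmer Apln set had -0.25 in the apex and -1.22 in the outflow tract and could not be sorted. Gpx3, the plasma glutathione peroxidase, had 0.42 and 0.73. Car3, the carbonic anhydrase abundant in fat, reached 2.52 and 4.88; its difference of 2.35 ± 0.83 missed the threshold (adjusted p = 0.0576), while a second, dimmer set differed by 3.93 (adjusted p = 0.0015). Apart from Nppa and Sbsn, apex values in this paragraph did not pass the adjusted threshold.

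Genes classed as opposite were mostly dim, with a median signal of 136 against 736 for outflow-only genes. None of them passed the adjusted threshold in the apex. In 42 of the 44 genes (95.5%) the regional difference in vehicle rats had the sign of the apex effect. In the other classes this share ran from 49.6% (outflow-only) to 88.5% (weak), with 79.5% of apex-led genes. The vehicle apex arrays enter both the regional difference and the apex effect. Scd, stearoyl-CoA desaturase, which makes monounsaturated fat, read 18.8, 27.2, 6.47, 29.1 and 33 in the vehicle apex and 8.9, 7.54, 4.72, 4.88 and 3.36 in the PE apex, all near background. In the outflow tract it read 32, 26.1, 23.3, 42.9 and 13 in vehicle and 164, 223, 756, 235 and 256 in PE rats, with replicate 3 far above the others. The difference was 3.59 ± 0.43 (adjusted p = 9.49e-05). Dennd2d, an activator of Rab GTPases, had means of 66.8 ± 32.5 and 11.2 ± 9.76 in vehicle and PE apex and 28.1 ± 18.1 and 105 ± 38.1 in vehicle and PE outflow tract (difference 3.09 ± 0.47, adjusted p = 0.000471). Foxl2, a forkhead factor of the ovary and eyelid, showed -1.33 in the apex, 1.04 in the outflow tract and -1.98 between the vehicle regions. Of the brighter genes, Letmd1, a mitochondrial membrane protein, had 412, 394, 331, 442 and 467 in the vehicle and 340.2, 268, 253, 258 and 313 in the PE apex, and 385, 353, 365, 247 and 377 in the vehicle and 407, 461, 536, 579 and 562 in the PE outflow tract. Its difference was 1.03 ± 0.20 (adjusted p = 0.00182). A dimmer Letmd1 set fell in the outflow tract, from a mean of 202 to 108 (effect -0.95, adjusted p = 0.00771). It differed by -0.67 (adjusted p = 0.24), so the direction in the outflow tract depends on the probe set. Ftsj3, an RNA methyltransferase of ribosome assembly, and Stat4, a transducer of interleukin-12 signals, differed by 1.03 ± 0.21 and 1.33 ± 0.33; the adjusted p of Stat4 was 0.0856 without PE outflow replicates 2, 4 and 5. With the reverse signs, Slc3a1, an amino acid transporter subunit, had 0.98 in the apex and -1.15 in the outflow tract (difference -2.13 ± 0.61, and -1.09 with adjusted p = 0.28 without PE outflow replicates 2, 4 and 5). Bfsp2, Tg, Il4 and Peg10 had differences of -1.57, -1.32, -1.57 and -1.74 (Il4 with an adjusted p of 0.0529 without PE outflow replicates 2, 4 and 5) at group means of at most 112.

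Apex-led genes were dim too (median signal 86). Zdhhc13, a palmitoyltransferase, read 434, 515, 471, 409 and 386 in the vehicle apex and 636, 563, 589, 649 and 563 in the PE apex, and 446, 618, 457, 431 and 509 and 476, 389, 467, 458 and 407 in the vehicle and PE outflow tract. Its difference was -0.58 ± 0.16 (adjusted p = 0.0184), and 0.109 was its adjusted p without PE outflow replicates 2, 4 and 5. Rab30, a Golgi GTPase, had -0.55 in the apex and 0.09 in the outflow tract (difference 0.63 ± 0.18). Ap5b1, an adaptor subunit of endosomal sorting, had 1.02 and 0.12 (difference -0.90 ± 0.29), a call lost in 22 of 41 alternatives. The means of Fcgbpl1, Grik1 and Pth2r lay under 50 in every group.

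Markers of other cell types had mostly positive differences. In tissue RNA, more cells of a type and more RNA per cell cannot be told apart. Of 18 fibroblast markers 12 had a called positive difference and 0 a negative one, S100a4 leading at 1.92 ± 0.25, and their summed signal was 95071 to 108837 on the vehicle apex arrays, 108098 to 125974 on PE apex, 82739 to 108349 on vehicle outflow and 157895 to 192373 on PE outflow. Smooth muscle and myofibroblast markers split 11 positive to 3 negative of 16: Mylk, the myosin light chain kinase, and Tpm2, a tropomyosin, differed by 1.69 ± 0.28 and 2.47 ± 0.43, whereas Des, Smtn and Synpo2, which heart muscle also expresses, differed by -0.99, -0.95 and -0.93. Smtn and Synpo2 were named after their values were seen. Without PE outflow replicates 2, 4 and 5, 7 markers of this list were called positive. Dimmer sets of Mylk and Tpm2 differed by 0.26 and 0.27 and were not called. Cartilage, tendon and bone markers had the largest median of any list, 1.85 with 9 of 15 called, and included Fmod (fibromodulin) at 2.84 ± 0.51, Alpl (alkaline phosphatase) at 1.86 ± 0.32 and Tnmd (tenomodulin) at 1.85 ± 0.36. Their summed signal ran from 5655 to 16787 on PE outflow arrays, against at most 4288 elsewhere. Ibsp, bone sialoprotein, was dim outside the PE outflow tract, where it read 1230.2, 5.88, 245, 333 and 477, the lowest of these within the range of the other groups, and Coch and Cldn11 likewise reached means of 362 ± 365 and 666 ± 389.9 there.

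Immune markers followed. Of 21 macrophage and myeloid genes 11 were called positive and 0 negative (median 0.93), and 7 positive with median centring. The summed signal was 15759 to 25074 on the vehicle apex arrays, 23710 to 29777 on PE apex, 18429 to 28878 on vehicle outflow and 28929 to 72485 on PE outflow. Relative to vehicle, the list's mean was 1.3, 0.33, 1.24, 1.65 and 1.74 on PE outflow replicates 1 to 5, lowest on replicate 2, and 0.44, 0.12, 0.34, 0.33 and 0.33 on PE apex replicates. Lgals3, galectin-3, differed by 1.1 ± 0.26, Ptprc, the pan-leukocyte phosphatase CD45, by 1.41 ± 0.36 (0.61 and not called on a dimmer set) and Cd68, a lysosomal macrophage protein, by 1.04 ± 0.30 (adjusted p = 0.0214, and 0.0551 without PE outflow replicates 2, 4 and 5). Of 14 complement genes 8 were called positive, and 5 with median centring. C3, the central component, had signals of 146, 180, 149, 131 and 116 in the vehicle apex, 228, 133, 108, 81.1 and 142 in the PE apex, 94.1, 163, 127, 77.2 and 131 in the vehicle outflow tract and 718, 478, 744, 1156 and 1426 in the PE outflow tract. Each PE outflow array exceeded the others, and the difference was 2.82 ± 0.38 (adjusted p = 0.000222). Of 25 chemokine and cytokine genes 4 were called positive (16%), near the 14.1% of all genes called positive. Ccl21 and Cxcl13, attractants of lymphocytes and dendritic cells, differed by 1.69 ± 0.27 and 1.84 ± 0.36. The decoy receptor Il1r2 differed by 2.32 ± 0.51 and Cxcl14 by 1.45 ± 0.40. The last pair had adjusted p of 0.0525 and 0.14 without PE outflow replicates 2, 4 and 5. Ccl2 and Cxcl1, attractants of monocytes and neutrophils, had differences of 0.78 ± 0.47 and 0.53 ± 0.33 that were not called. Of 10 mast cell markers 4 were called, the receptor subunit Fcer1a, the proteases Cpa3 and Cma1 and the tryptase Tpsab1, at 1.95, 1.62, 1.31 and 1.37. Tpsab1 (adjusted p = 0.0465) lost its call in 26 of 42 alternatives and Cma1 in 7. Without PE outflow replicates 2, 4 and 5, 2 of the 10 were called, and Cma1 differed by 0.80 (adjusted p = 0.273).

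Adipocyte genes divided within 1 list. Rbp4, the fat-derived retinol carrier, Cidec, a lipid droplet protein, Plin1, Scd and Cfd (adipsin) had called positive differences, at 3.0, 2.58, 2.66, 3.59 and 1.2. Pnpla2, Plin4 and Lpl, which heart muscle uses too, had called negative ones at -1.24, -1.07 and -0.75; Plin1, Plin4 and Lpl were named after their values were seen. Without PE outflow replicates 2, 4 and 5, 3 positive calls were left, and Cidec had an adjusted p of 0.0768. The leptin gene Lep and Pparg were not called. Among 15 markers of nerve and Schwann cells, 9 were called positive and 0 negative, with S100b, Pmp22, Mbp and Gfra3 at 2.1 ± 0.34, 1.31 ± 0.20, 1.33 ± 0.26 and 1.63 ± 0.30. Dimmer sets of Pmp22 and Mbp differed by 0.57 and -0.24 and were not called. Of 17 endothelial markers 5 were called positive (29.4%, against 14.1% of all genes). They ran from Vwf (von Willebrand factor) at 1.68 ± 0.26 down to Icam2 at 0.45 ± 0.14, and the list's median was 0.00. With median centring 2 were positive and 1 negative, and without PE outflow replicates 2, 4 and 5 1 was positive and 1 negative. Icam2 lost its call in 22 of 42 alternatives. Atrial markers were mixed, with 1 of 11 called positive and 3 negative, where 14.1% of all genes were called positive and 10.2% negative. Their summed signal was 21316 to 24875 on the vehicle apex arrays and 24490 to 68988 on PE apex. On the outflow arrays it was 20864 to 24643 in vehicle and 33160 to 57012 in PE rats. The list includes Nppa, so these sums contain its rise in both regions. Red cell markers had 0 positive and 2 negative calls of 8, Ank1 at -1.86 and Slc4a1 at -2.05. Called in either direction were 25% of the list, against 24.3% of all genes. Slc4a1 differed by -1.07 (adjusted p = 0.172) without PE outflow replicates 2, 4 and 5, and had an adjusted p of 0.0541 with the GAPDH ratio as covariate. Its dimmer set (-0.52) and those of Ank1 (-0.32 and -0.19) were not called. The haemoglobin genes Hbb and Hba-a3 had positive differences, 1.61 and 1.12, that were not called (adjusted p = 0.304 and 0.351). The median of the red cell list was 0.02. Mast cell markers summed to 458 to 807 on the vehicle apex arrays, 601 to 1106 on PE apex, 608 to 824 on vehicle outflow and 1538 to 2839 on PE outflow. For smooth muscle markers the sum was 38824 to 49109 on the vehicle apex arrays, 41019 to 48916 on PE apex, 40857 to 49895 on vehicle outflow and 57805 to 115350 on PE outflow. Nerve markers summed to 23229 to 44746 on PE outflow arrays and to 10403 to 13926 on PE apex. A mean signal under 50 over all arrays was found for 1 of 18 fibroblast, 0 of 16 smooth muscle, 0 of 21 macrophage, 3 of 10 mast cell, 4 of 15 nerve and 1 of 15 adipocyte markers. The part of these markers in the other results was not tested.

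**Figure D5:**
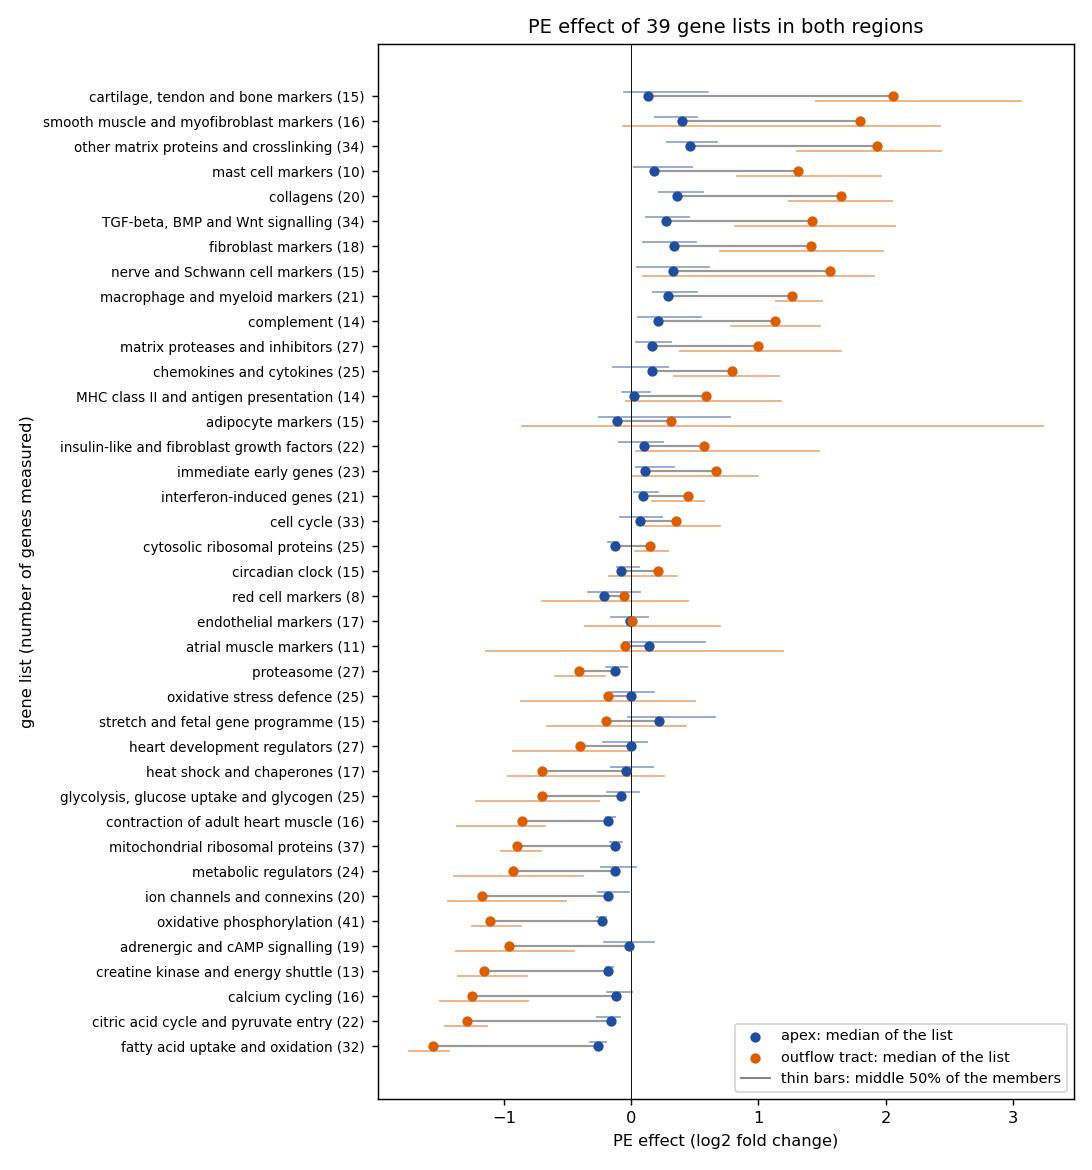
Median PE effect of 39 gene lists in the apex and in the outflow tract (log2 fold change, horizontal axis), joined by a grey line, with thin bars over the middle 50% of members and the number of genes measured in brackets. Apex medians lie between -0.26 and 0.46, and outflow medians between -1.56 and 2.06.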

How the data were processed

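RNA of 20 right ventricle samples was labelled as biotin cRNA from 5 microgram of total RNA and read on Affymetrix arrays. The deposited values are linear intensity per probe set, scaled before deposit, since every array has the same trimmed mean of 500.2 with 2% of values left out at either end; the summarisation method is not given in the sources used here. The 57 control probe sets were left out, which left 31042. Here log2(signal + 16) was fitted with limma 3.58.1 in R 4.3.3 over the 4 group means, and every adjusted p is Benjamini-Hochberg over all probe sets, two-sided; the pseudocount shrinks folds of dim genes. ± after a difference is the SE. Of the probe sets 20826 had 1 gene symbol, 436 several and 9780 none; a gene is shown by its brightest probe set. The number of arrays, 5 a group, limits the precision.

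Members, gene lists, classes and naming rule were chosen with earlier results of these data known. Genes named are those of the classes with the largest difference or smallest apex p, up to 4 of each list with the smallest p, and reference genes of load; exceptions are stated. Same-numbered apex and outflow arrays deviated together over 12310 probe sets (r 0.181 to 0.283), so they were treated as pairs in an alternative. Alternatives covered scaling, pseudocounts of 1 and 64, the 40% dimmest probe sets, pairing, variance models, array weights, the GAPDH ratio, left-out arrays, a 1.2-fold minimum and apex thresholds. The fit was tested on simulated data.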

Additional observations from a re-analysis of the deposited data

Results flagged for a closer look

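Among 176 groups of 5 arrays, over 42 genes and the control ratios, 13 held an array far from the other 4; chance gives about 1 in 20. On PE outflow replicate 2 these were the GAPDH ratio of 6.12 and the actin ratio of 11.5, and Sfrp2 at 1432 and Mfap4 at 10282 (lowest of their groups) and Sbsn at 2270 (highest). High single arrays were Scd at 756 on PE outflow replicate 3, Dennd2d at 172 on PE outflow replicate 4, Slco5a1 at 131 on PE apex replicate 3, and Fgf16 at 1602 and Mmp13 at 26.8 on vehicle outflow replicate 5. In the vehicle apex, replicate 2 was high for Ibsp (28.9) and Mfap4 (3966). Letmd1 was low, at 247, on vehicle outflow replicate 4. The interaction test set apart 2988 outflow-only, 354 graded, 44 opposite and 39 apex-led genes, whose effect of PE differed between the regions.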

How the results depend on the processing

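Leaving out single arrays or rats gave 4006 to 7127 called differences. Without PE outflow replicates 2, 4 and 5 there were 3646 (1810 positive), 3947 outflow rises, 5320 regional calls in PE, 22 apex calls, and 2630 outflow-only, 823 graded and 51 apex-led probe sets. A 1.2-fold minimum left 2538 (1377 positive, 1161 negative). Pairing by rat changed the 5567 calls to 6074 with a random replicate block and 5121 with a fixed one, within 1.5 times. Adjusting over genes gave 1612 negative differences, 6560 outflow calls (3903 up, 2657 down), 5691 regional calls in PE, 10 apex calls, and 48 opposite, 335 shared and 59 apex-led. The 4 apex calls became 1 with quantile normalization, 17 with pseudocount 64, 15 without dim probe sets, 23 with trend and robust variances, 31 with array weights and 7 with the GAPDH covariate, 1 to 30 without single arrays and 0 to 47 without a rat. Array weights gave 813 graded and 184 apex-led. Apex thresholds of 0.01 and 0.1 gave 184 and 744 graded, 21 and 193 opposite and 212 and 1000 shared. Leaving out single arrays gave 337 to 845 graded, 83 to 160 apex-led and 0 to 1 vehicle regional calls. Leaving out a rat gave 63 to 159 apex-led, and 309, 314 and 316 graded without vehicle rats 1, 4 and 5 and 803, 296 and 317 without PE rats 2, 4 and 5.

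Directions turned for Sbsn (-0.16 to 0.37 without single arrays, -0.21 without PE rat 2, -0.12 with weights, -0.56 with the covariate, -0.15 without the 3 arrays) and Nppb (-0.37 to 0.04 without single arrays, 0.04 without vehicle rat 2, 0.03 without PE rat 4 and 0.1 without the 3 arrays). List medians turned for endothelial (-0.05 quantile, -0.11 centring), red cell (-0.09 centring, -0.08 without the 3 arrays) and atrial markers (0.03 without them). Other probe sets turned Letmd1 (-0.67), F13a1 (-0.30), Asph (0.92 and 0.66), Kcnip2 (0.16), Cxcl14 (-0.13), Mbp (-0.24), Egr2 (-0.87) and Clock (-1.13). The causes were not tested.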

Other observations

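Lists not described so far are given here. Over all genes, 14.1% had a called positive and 10.2% a called negative difference. Of 17 heat shock and chaperone genes 7 had a called negative difference, among them the mitochondrial chaperones Hspa9 and Hspd1 at -1.06 ± 0.19 and -0.64 ± 0.18 and the small heat shock proteins Hspb2 and Hspb8 at -1.25 ± 0.25 and -1.14 ± 0.28. Dimmer sets of Hspa9 differed by -0.54 and -0.10 and were not called. Of 25 genes of oxidative stress defence 9 were called negative and 2 positive (12 negative with median centring, 4 positive with quantile normalization). The mitochondrial enzymes Sod2 and Prdx3 differed by -1.17 ± 0.19 and -1.22 ± 0.23, catalase (Cat) by -0.96 ± 0.17 and Prdx6 by -1.43 ± 0.26. Cell cycle genes had 8 of 33 called positive (24.2%), with the replication helicase subunits Mcm4 and Mcm6 at 1.05 ± 0.24 and 0.91 ± 0.26. The largest of the 8 was Tacc3 at 1.22. The 8 became 4 with quantile normalization, 1 with median centring and 2 without PE outflow replicates 2, 4 and 5, where Mcm6 had an adjusted p of 0.0987. Of 27 proteasome subunits 6 were called negative (22.2%), led by Psmd12 at -0.70 ± 0.17. This count was 1 with quantile normalization, 9 with median centring and 1 without PE outflow replicates 2, 4 and 5.

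Immediate early genes had 2 of 23 called positive (8.7%, against 14.1% of all genes), Egr2 at 1.24 ± 0.34 and Myc at 0.98 ± 0.32. Myc (adjusted p = 0.0399) lost its call in 24 of 42 alternatives, and Egr2 had an adjusted p of 0.125 without PE outflow replicates 2, 4 and 5. Interferon-induced genes had 2 of 21 called positive (9.52%, also below the share of all genes), Ifitm1 at 1.29 ± 0.29 and Ifitm3 at 0.71 ± 0.18. For 0 of 15 circadian clock genes was the difference called; the smallest adjusted p among them was 0.194 (Clock). Antigen presentation had 3 of 14 called positive (21.4%, against 14.1% of all genes), RT1-Db1, RT1-Da and Ctss, at 1.06, 1.08 and 1.47. RT1-Da lost its call in 15 of 42 alternatives. RT1-Db1 had an adjusted p of 0.0655 without PE outflow replicates 2, 4 and 5, and a second RT1-Db1 set was not called (1.2, adjusted p = 0.524). Of the stretch and fetal genes, Actn1 differed by 1.83 ± 0.34, Xirp1 by -1.39 ± 0.36 and Tuba8 by -1.84 ± 0.49. In that list 1 of 15 was called positive and 5 negative (40% in either direction, against 24.3% of all genes).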
